A study of Homo sapiens with 4 samples.

Results

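The genes described here encode the inhibitors of cyclin-dependent kinases (CDKs), chosen by gene symbol: the CIP/KIP genes CDKN1A, CDKN1B and CDKN1C, the INK4 genes CDKN2A, CDKN2B, CDKN2C and CDKN2D, and CDKN3. Of these 8 symbols, 7 had a row among the 26830 genes of the table. CDKN1C had no row under its symbol and was not analysed here. The study set out to find the transcripts bound by QKI7 by RNA immunoprecipitation sequencing (RIP-seq); QKI7 is a splice isoform of the STAR-domain RNA-binding protein QKI. Both groups came from U2OS, an established human osteosarcoma line, stably expressing 3 x Flag-tagged QKI7 from a lentivirus, with GFP-positive cells kept and no other treatment. The Flag-RIP group (n = 2 libraries) held RNA recovered with a Flag antibody after ultraviolet cross-linking and sonication, and the input group (n = 2 libraries) held RNA of the same kind of lysate without an antibody. Neither a mock precipitation nor untagged cells were analysed here. The labels do not say whether the replicates were separate cultures, so p-values measure the spread between these libraries, which may be technical.

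CDK inhibitors hold cells out of division. The CIP/KIP proteins p21 (CDKN1A), p27 (CDKN1B) and p57 (CDKN1C) bind whole cyclin-CDK complexes, above all those of CDK2, whereas the INK4 proteins p16 (CDKN2A), p15 (CDKN2B), p18 (CDKN2C) and p19 (CDKN2D) bind CDK4 and CDK6 and keep D-type cyclins off them. CDKN3 encodes a phosphatase that removes the activating phosphate from CDKs and is itself made mainly in dividing cells. QKI binds RNA at the sequence ACUAAY with a nearby half-site, and CDKN1B is among its reported target mRNAs.

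The table held TPM, the share of a library's transcripts that come from a gene after correction for its length, with no read depth. A few abundant noncoding RNAs filled most of the input libraries, and the 7SL RNAs RN7SL1 and RN7SL2 took 39.8% and 43.4% of the TPM in Flag-RIP, against 84.6% and 79.7% in input. Most other genes therefore had a higher TPM in Flag-RIP, with a median change of 1.2 on the log2(TPM + 1) scale over the 10415 tested genes (mean TPM of at least 1). Each library was for that reason divided by a median-of-ratios factor, and the factors of the groups differed 3.37-fold. Changes below are Flag-RIP minus input on log2(scaled TPM + 1), so they are relative to the typical gene, except where given as deposited. A change compares precipitated RNA with input RNA and is not a difference between cells. For a level in these lysates of many cells, fewer cells holding a transcript and less of it per cell cannot be told apart. Of 7 osteosarcoma or mesenchymal markers, COL1A1, SPARC, VIM, RUNX2 and CD44 passed the filter, whereas COL1A2 and ALPL were under 1 TPM in every library. Of 9 markers of other cell types, KRT8 and KRT18 passed the filter, at 36.2 to 68.5 TPM in Flag-RIP and 20.0 to 58.7 TPM in input. The blood marker PTPRC was at 0.01 TPM or less and the liver marker ALB was listed at 0 in all 4 libraries. QKI itself had 60.7 and 42.0 TPM in Flag-RIP, against 3.83 and 5.85 TPM in input. Its change was 1.56 (SE 0.17, limma adjusted p = 0.0086), and the value per gene does not separate transgene from endogenous reads. Scaled to the spike-ins, QKI had 0.63 and did not pass (limma adjusted p = 0.084).

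Of the tested inhibitor mRNAs, CDKN3 and CDKN1A were lower in Flag-RIP relative to the typical gene and the others did not pass the test. CDKN3 was at 0.47 times its input level and CDKN1A at 0.75 times, as ratios of scaled means. The ratios of CDKN1B (1.26), CDKN2C (1.42) and CDKN2D (0.88) did not pass. Of the 5 tested members 0 were called higher by limma (also 0 at an unadjusted p under 0.05) and 2 lower, where 21.5% of all tested genes were called higher and 23.7% lower. The median change of the 5 was -0.14, against 0.0068 over all tested genes. As deposited, 4 of the 5 were called higher and 0 lower, where 92.3% of all tested genes were called higher, and CDKN3 was the one that did not pass. The sign of the whole set followed the scaling, from 0.58 to 1.87 as deposited to -1.84 to -0.48 scaled to the spike-ins. All 5 had a mean of at least 1 TPM in the input libraries alone, so none entered the test only through its Flag-RIP values. The shares and the median over all tested genes do count genes that entered that way, so they are not matched to the members. Genes with at least 1 TPM numbered 6117 and 7803 in the inputs, against 11970 and 12098 in Flag-RIP.

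CDKN1B encodes p27, and its gene lies on chromosome 12 from 12717368 to 12722369 (GRCh38.p14, as are the positions below). Its mRNA had 8.96 and 7.13 TPM in Flag-RIP, against 1.59 and 2.24 TPM in input. Both Flag-RIP values lay above both inputs, as they did for 96.7% of tested genes as deposited. After scaling, CDKN1B had 4.72 and 4.02 TPM in Flag-RIP and 3.65 and 3.28 TPM in input. The groups still did not overlap, with Flag-RIP above as in 40.1% of tested genes. The change of 0.26 (SE 0.11, 95% interval -0.0079 to 0.54) did not pass (limma adjusted p = 0.097). That placed it at the 71.0 percentile of all tested changes. The change passed where libraries were rescaled without the 20 most abundant rows (0.77, limma adjusted p = 0.010), a scale on which the median of all genes was 0.45. Scaled to the spike-ins, where the median was -0.68, CDKN1B had -0.52, which missed the threshold (limma adjusted p = 0.074).

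CDKN1A encodes p21, the inhibitor induced by p53, and lies on chromosome 6 from 36676463 to 36687332. Its mRNA was the most abundant of the inhibitors in both inputs and in Flag-RIP replicate 2. It had 20.7 and 21.3 TPM in Flag-RIP, against 6.57 and 10.6 TPM in input. After scaling, CDKN1A had 10.9 and 12.0 TPM in Flag-RIP and 15.1 and 15.5 TPM in input. The scaled groups did not overlap, with Flag-RIP below as in 39.6% of tested genes. As deposited CDKN1A was 1.23 higher (limma adjusted p = 2.4e-04), where the median of all tested genes was 1.2. After scaling it fell by 0.39 (SE 0.12, 95% interval -0.69 to -0.095, limma adjusted p = 0.044), at the 22.8 percentile of all tested changes. The call was lost without any 1 of the 4 libraries (-0.45 to -0.32, limma adjusted p of 0.068 to 0.15), with a mean TPM of at least 5 (-0.19, limma adjusted p = 0.21) and under 3 other scalings. With libraries at a common median after log2 CDKN1A had -0.087, after quantile normalization -0.11, and rescaled without the 20 most abundant rows 0.037, none of which passed (limma adjusted p = 0.65, 0.53 and 0.91). Scaled to the spike-ins the call held, at -1.31 (limma adjusted p = 2.3e-04). On that scale the median of all tested genes was -0.68 and 6339 of 10415 were called lower. There CDKN1A lay at the 17.6 percentile, and rescaled without the 20 most abundant rows at the 26.5 percentile. As deposited and at a common median after log2 it lay at the 52.3 percentile, and after quantile normalization at the 41.8 percentile. Its low rank thus held on some scales only.

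**Figure D1:**
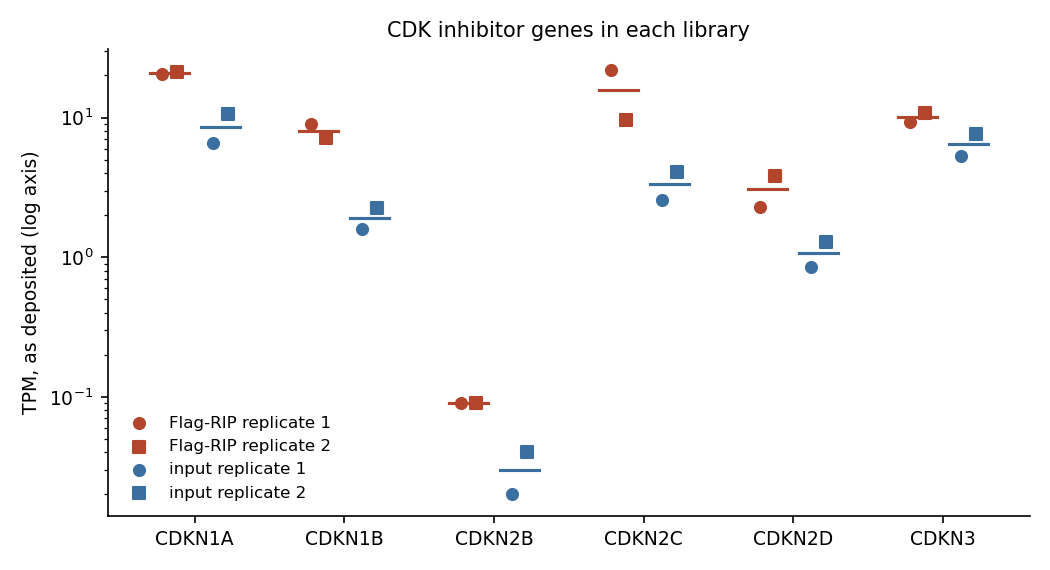
TPM as deposited (log axis) of the 6 inhibitor genes above 0 in every library, with a point per library (circles replicate 1, squares replicate 2) and a bar at the mean of the 2 libraries of a group. Both Flag-RIP values lie above both inputs for all 6 genes, as they do for 96.7% of all tested genes as deposited. Of the 5 tested members the smallest fold is in CDKN3, and the Flag-RIP replicates of CDKN2C lie far apart at 21.7 and 9.66 TPM.

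CDKN3 was the member with the lowest adjusted p on the scaled values. The gene lies on chromosome 14 from 54397007 to 54420218. Its mRNA had 9.32 and 10.8 TPM in Flag-RIP, against 5.34 and 7.61 TPM in input. It was second only to CDKN1A in both inputs and behind CDKN2C and CDKN1A in Flag-RIP replicate 1. After scaling, CDKN3 had 4.91 and 6.08 TPM in Flag-RIP and 12.3 and 11.2 TPM in input, with no overlap. CDKN3 fell by 0.97 (SE 0.13, 95% interval -1.31 to -0.64, limma adjusted p = 0.0097), at the 5.79 percentile of all tested changes. Without any 1 library the change of CDKN3 was -1.08 to -0.82. In such fits a lone library is assumed to vary like the other group, so passing there is not read as support. The call held under the scalings other than TPM as deposited, where CDKN3 had 0.58 and did not pass (limma adjusted p = 0.075).

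Of the INK4 genes, CDKN2C and CDKN2D were measured above the filter and CDKN2A and CDKN2B were near 0. CDKN2C, which encodes p18, lies on chromosome 1 from 50960745 to 50974634. It had 21.7 and 9.66 TPM in Flag-RIP, against 2.58 and 4.08 TPM in input. After scaling, CDKN2C had 11.4 and 5.45 TPM in Flag-RIP and 5.93 and 5.98 TPM in input, so that 1 Flag-RIP library was high and the other lay below both inputs. The change of 0.37 (SE 0.31, 95% interval -0.41 to 1.15) did not pass (limma adjusted p = 0.36). It was 0.82 without Flag-RIP replicate 2 and -0.11 without Flag-RIP replicate 1. In such fits the lone Flag-RIP library is assumed to vary like the inputs, which for CDKN2C the pair of Flag-RIP values contradicts, so no call is read from them. CDKN2C passed when rescaled without the 20 most abundant rows (0.85, limma adjusted p = 0.0036). On that scale the median of all tested genes was 0.45, and CDKN2C lay at the 73.3 percentile. Scaled to the spike-ins, where that median was -0.68, CDKN2C had -0.48 and did not pass (limma adjusted p = 0.14).

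CDKN2D, which encodes p19, lies on chromosome 19 from 10566460 to 10568979. It had 2.29 and 3.82 TPM in Flag-RIP, against 0.85 and 1.28 TPM in input. After scaling, CDKN2D had 1.21 and 2.16 TPM in Flag-RIP and 1.95 and 1.88 TPM in input. The groups overlapped, and here Flag-RIP replicate 1 was the low library, where for CDKN2C it was the high one. The change of -0.14 (SE 0.18, 95% interval -0.60 to 0.31) did not pass (limma adjusted p = 0.54). It was -0.37 without Flag-RIP replicate 2 and 0.11 without Flag-RIP replicate 1, and no call is read from these fits either. Scaled to the spike-ins, where the median of all tested genes was -0.68, CDKN2D had -0.79 and passed (limma adjusted p = 0.0020).

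CDKN2A and CDKN2B are neighbours on chromosome 9, from 21967752 to 21995324 and from 22002903 to 22009313. U2OS is known as a line that makes no p16. CDKN2A was listed at 0 in Flag-RIP replicate 1 and 0.03 TPM in replicate 2, against 0 in both inputs. CDKN2B, which encodes p15, had 0.09 and 0.09 TPM in Flag-RIP, against 0.02 and 0.04 TPM in input. Neither reached the filter, and values this small are close to the 2 decimals of the table. Both genes share similar coding sequence, so the division of reads between them is uncertain. The antisense row CDKN2B-AS1 was listed at 0 and 0.04 TPM in Flag-RIP and at 0 in both inputs. MTAP, a neighbour of CDKN2A, was measured at 2.34 and 2.13 TPM in Flag-RIP, against 0.47 and 0.81 TPM in input.

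**Figure D2:**
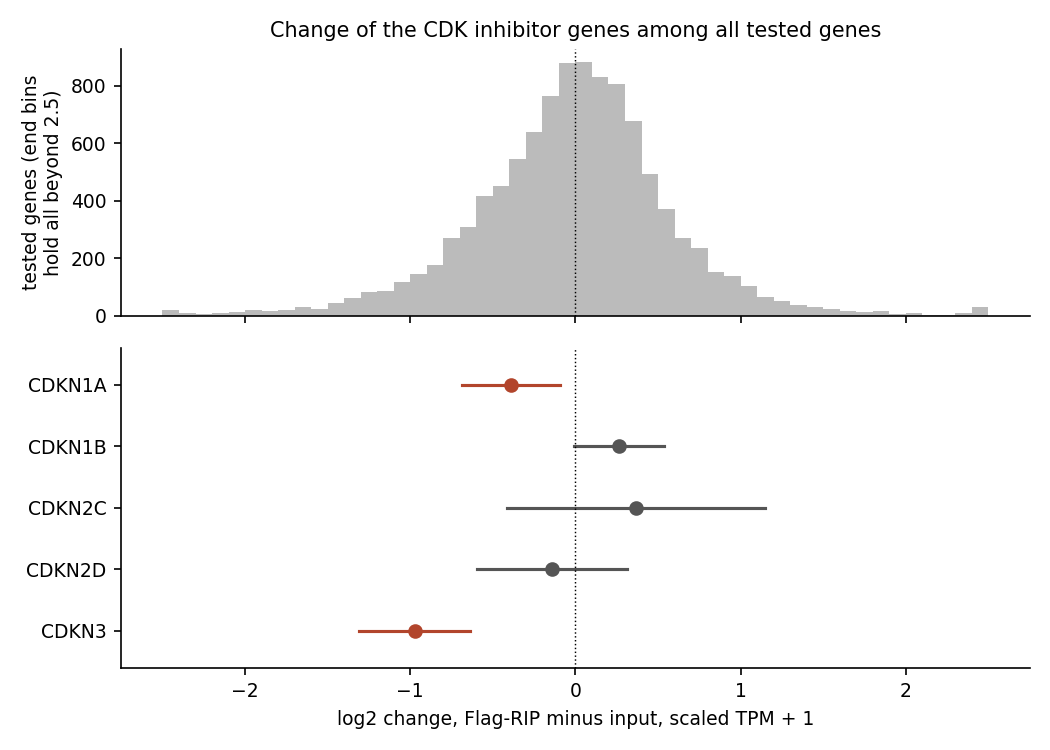
Upper panel, number of tested genes by log2 change (Flag-RIP minus input, log2 of scaled TPM + 1), with values beyond 2.5 in either direction collected in the end bins; lower panel, the change of each of the 5 tested inhibitor genes with its 95% interval, coloured where the limma adjusted p was under 0.05. CDKN3 at -0.97 lies near the 5th percentile of all tested genes (-1.03), and the other members lie between -0.39 and 0.37, within or close to the range between the 25th and 75th percentiles of all genes (-0.35 to 0.32).

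The composition of the family within a library does not depend on how libraries are scaled. The 7 members summed to 63.0 and 52.8 TPM in Flag-RIP, against 16.9 and 25.8 TPM in input. CDKN3 made up 14.8% and 20.4% of that sum in Flag-RIP, against 31.5% and 29.5% in input. CDKN1B, in contrast, made up 14.2% and 13.5% in Flag-RIP, against 9.38% and 8.68% in input. Both shares separated the groups, CDKN3 with less and CDKN1B with more of the family in Flag-RIP, and so did that of CDKN2C. Separation is common here, as 79.9% of within-library ratios of 2 tested genes did not overlap between the groups. It is therefore given as a description. The share of CDKN2C was 34.5% and 18.3% in Flag-RIP, against 15.2% and 15.8% in input, and so higher in both Flag-RIP libraries but uneven. The CDKN1A share was 32.8% and 40.3% in Flag-RIP and 38.8% and 40.9% in input, and the groups overlapped, as they did for CDKN2D at 3.63% and 7.24% in Flag-RIP and 5.01% and 4.96% in input. These shares add to a whole, so a lower share of one member raises the others.

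**Figure D3:**
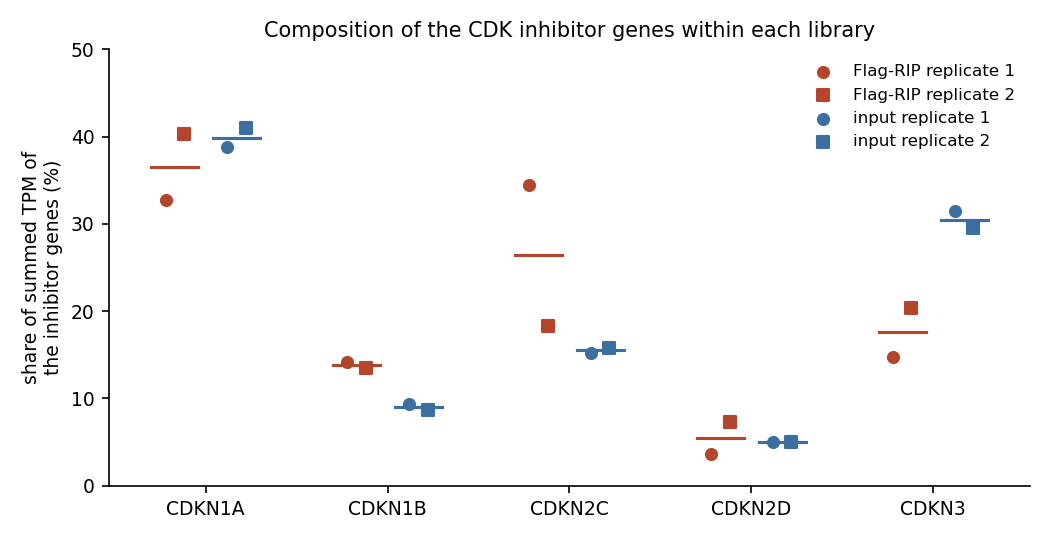
Share of each gene in the summed TPM of the 7 inhibitor genes (percent), with a point per library and a bar at the mean of each group; CDKN2A and CDKN2B, at under 0.2%, are not drawn. The CDKN3 share is 14.8% and 20.4% in Flag-RIP against 31.5% and 29.5% in input, and the CDKN1B share is 14.2% and 13.5% against 9.38% and 8.68%.

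Ratios between 2 members of the same library likewise need no scaling. Of the 10 pairs among the 5 tested members, 6 had ratios that did not overlap between the groups, among them all 4 pairs with CDKN3, where 79.9% of all pairs of tested genes above 0 in every library did not overlap. The members' count is therefore no result about the family, and the ratios are given as a description. There were 0.961 and 0.662 CDKN1B transcripts per CDKN3 transcript in Flag-RIP, against 0.298 and 0.294 in input. CDKN1A stood at 2.22 and 1.97 per CDKN3 in Flag-RIP, against 1.23 and 1.39 in input. The ratio of CDKN1A to CDKN1B was 2.31 and 2.98 in Flag-RIP, against 4.13 and 4.72 in input, so the ratio of p21 to p27 mRNA was lower in both Flag-RIP libraries than in either input. With 2 libraries against 2, the smallest two-sided p an exact permutation test allows is 0.333, and the pairs share members and libraries.

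The order of the levels was nearly fixed. In both inputs CDKN1A was followed by CDKN3, CDKN2C, CDKN1B, CDKN2D, CDKN2B and CDKN2A, with input means of 8.57 ± 2.83 TPM for CDKN1A and 6.47 ± 1.61 TPM for CDKN3 (SD, n = 2). CDKN1A lay above CDKN3 within each input library, and after scaling their input values, 15.1 and 15.5 against 12.3 and 11.2 TPM, did not overlap. CDKN2C at 3.33 ± 1.06 TPM and CDKN1B at 1.92 ± 0.46 TPM came next, and their ranges, 2.58 to 4.08 and 1.59 to 2.24 TPM, did not overlap. In Flag-RIP the top places went to CDKN2C in replicate 1 and to CDKN1A in replicate 2, and CDKN1B, CDKN2D, CDKN2B and CDKN2A kept the fourth to last places in both. The Flag-RIP means were 21.0 ± 0.43 TPM for CDKN1A, 15.7 ± 8.53 TPM for CDKN2C, 10.0 ± 1.03 TPM for CDKN3, 8.05 ± 1.29 TPM for CDKN1B and 3.06 ± 1.08 TPM for CDKN2D (SD, n = 2). The order of CDKN2C against CDKN1A and CDKN3 differed between the Flag-RIP libraries, and the ranges of CDKN3 (9.32 to 10.8 TPM) and CDKN1B (7.13 to 8.96 TPM) did not overlap.

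The tested genes with profiles most like that of CDKN1B over the 4 libraries, in level and change together, were KLHL25, BNIP3L and RAD54L2, at Euclidean distances of 0.075, 0.088 and 0.11 on log2(scaled TPM + 1). Those most like CDKN1A, the tested member with the highest mean, were NOTCH2, SYMPK and BMP4, at 0.082, 0.085 and 0.091. With 4 libraries such likeness is loose, and of these 6 genes NOTCH2 (-0.45, limma adjusted p = 0.030) and BMP4 (-0.44, limma adjusted p = 0.040) passed the test.

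Among the targets and regulators of the inhibitors, genes were called in both directions. Of 43 genes in 4 lists, 40 were tested, 4 were called higher and 10 lower and 26 did not pass, with a median of -0.15, against 0.0068 over all tested genes. Of all tested genes 21.5% were called higher and 23.7% lower. The share of partners called lower is thus near that of genes at large, and the share called higher is smaller. The 4 called higher include KAT2B, which was listed in error, and both KAT2B and E2F3 reached the filter only through their Flag-RIP values. So did CDK7, RB1, RBL1, E2F5, CUL1, CDC25C and CDC14B, which were not called. The count of genes called higher therefore holds genes that the filter let in for being high in Flag-RIP. The same percentages are the background of each list that follows, and none of these counts shows more than the values of its genes. Without Flag-RIP replicate 1, limma called 0 in either direction (4 higher and 12 lower at an unadjusted p under 0.05), when 914 of all tested genes were called higher and 222 lower in place of 2240 and 2472. Among the 14 tested cyclins and CDKs, 1 rose and 6 fell, with a median of -0.38. The kinases held by INK4 proteins parted. CDK6 had 11.2 and 7.60 TPM in Flag-RIP, against 1.10 and 1.88 TPM in input, and rose by 0.73 (limma adjusted p = 0.016). CDK4 had 25.2 and 24.9 TPM in Flag-RIP, against 11.7 and 15.8 TPM in input, and fell by 0.83 (limma adjusted p = 0.011), although as deposited it was 0.83 higher (limma adjusted p = 0.013). Both calls were lost without Flag-RIP replicate 1 (limma adjusted p = 0.055 for CDK6 and 0.062 for CDK4), and that of CDK4 also when rescaled without the 20 most abundant rows (-0.41, limma adjusted p = 0.15).

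CDK2, the main target of p27, had 0.17 and did not pass (limma adjusted p = 0.17), nor did CCND1, the gene of cyclin D1, at -0.31 (limma adjusted p = 0.096). CCNB1, the gene of the mitotic cyclin B1, fell furthest in this list, by 0.88 (limma adjusted p = 0.013), and as deposited was 0.75 higher; rescaled without the 20 most abundant rows it had -0.48 and did not pass (limma adjusted p = 0.098). Of 9 tested pocket protein and E2F genes, which the kinases act on, 1 rose and 1 fell, with a median of -0.035. These were the transcription factor genes E2F3, at 0.52 (limma adjusted p = 0.011), and E2F4, at -0.59 (limma adjusted p = 0.015), the second of which was 1.00 as deposited. E2F3 averaged 0.835 TPM in input and 4.69 TPM in Flag-RIP, so it entered the test only through its Flag-RIP values. Its rise is therefore given as a value only. The E2F4 call was lost at a common median after log2 (-0.32, limma adjusted p = 0.077), rescaled without the 20 most abundant rows (-0.19, limma adjusted p = 0.56) and without any 1 library but input replicate 2 (limma adjusted p of 0.054 to 0.067).

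Of 10 genes for the turnover of the inhibitors, 1 rose and 2 fell, with a median of -0.23. CKS1B, whose protein helps the SKP2 ubiquitin ligase take up p27, had 49.2 and 33.5 TPM in Flag-RIP, against 5.07 and 5.57 TPM in input. It rose by 1.11 (limma adjusted p = 0.017). SKP2 itself had 5.97 and 5.84 TPM in Flag-RIP, against 1.62 and 2.30 TPM in input, a change of -0.11 that did not pass (limma adjusted p = 0.36). PCNA, the replication clamp on which p21 is degraded, fell by 1.13 (limma adjusted p = 0.010), and as deposited had 0.43 without passing (limma adjusted p = 0.18). Of 7 tested genes listed for CDK phosphorylation, 1 rose and 1 fell, with a median of -0.065, counting KAT2B, which was listed in error. The one that fell was the CDK1-inhibiting kinase PKMYT1, at -0.54 (limma adjusted p = 0.028), which had 0.99 as deposited. The PKMYT1 call was lost at a common median after log2 (-0.32, limma adjusted p = 0.11), after quantile normalization (-0.38, limma adjusted p = 0.091), rescaled without the 20 most abundant rows (-0.15, limma adjusted p = 0.65) and with the filter at a mean TPM of 5 (-0.35, limma adjusted p = 0.060). It was also lost without any 1 library but Flag-RIP replicate 2 (limma adjusted p of 0.076 to 0.090). The one that rose was KAT2B, at 0.39 (limma adjusted p = 0.025), which encodes an acetyltransferase and not a kinase or phosphatase. KAT2B averaged 0.445 TPM in input and 2.49 TPM in Flag-RIP, so it entered the test only through its Flag-RIP values. Its rise is therefore given as a value only. Scaled to the spike-ins the genes that rose had changes of 0.18 (CKS1B), -0.033 (CDK6), -0.13 (E2F3) and -0.11 (KAT2B), none of which passed. The calls of CKS1B, CDK6 and E2F3 were also lost with no filter (limma adjusted p = 0.070, 0.076 and 0.052), and those of CDK6 and E2F3 without input replicate 1 (limma adjusted p = 0.055 and 0.061). KAT2B also missed the threshold at a common median after log2 (-0.046, limma adjusted p = 0.83), after quantile normalization (0.20, limma adjusted p = 0.17), with no filter (0.30, limma adjusted p = 0.10) and without any 1 library but Flag-RIP replicate 2.

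**Figure D4:**
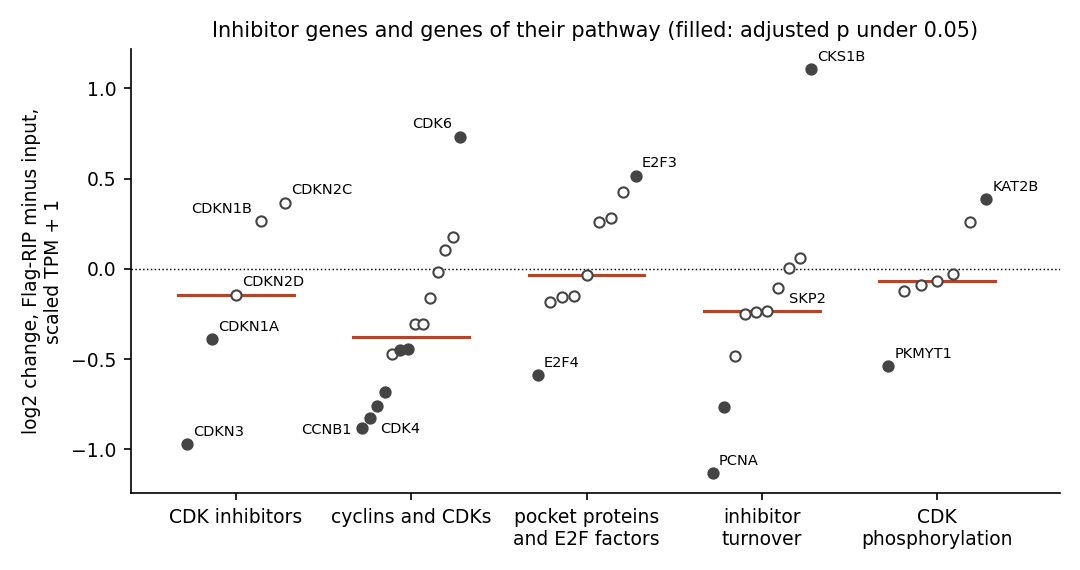
Log2 change (Flag-RIP minus input, log2 of scaled TPM + 1) of each tested inhibitor gene and of the tested genes in 4 lists of their targets and regulators, ordered by value within a list, filled where the limma adjusted p was under 0.05, with a line at each list's median. CKS1B at 1.11 and CDK6 at 0.73 lie highest, and PCNA at -1.13 and CDKN3 at -0.97 lowest; as deposited every gene drawn has a change above 0.

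How far the direction of each member rests on the scaling is shown by its change under 17 settings. CDKN3 was lowest of the members under all 17. CDKN1B and CDKN2C lay above the other members under 15 of the 16 settings that tested all 5. The exception was the fit without Flag-RIP replicate 1, where CDKN2D lay above CDKN2C. This order was largely fixed in advance, as dividing a library by a factor moves all members alike apart from the pseudocount. The variance model and the replicate block left every change as it was. These tallies are therefore a description and lend the order no support.

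**Figure D5:**
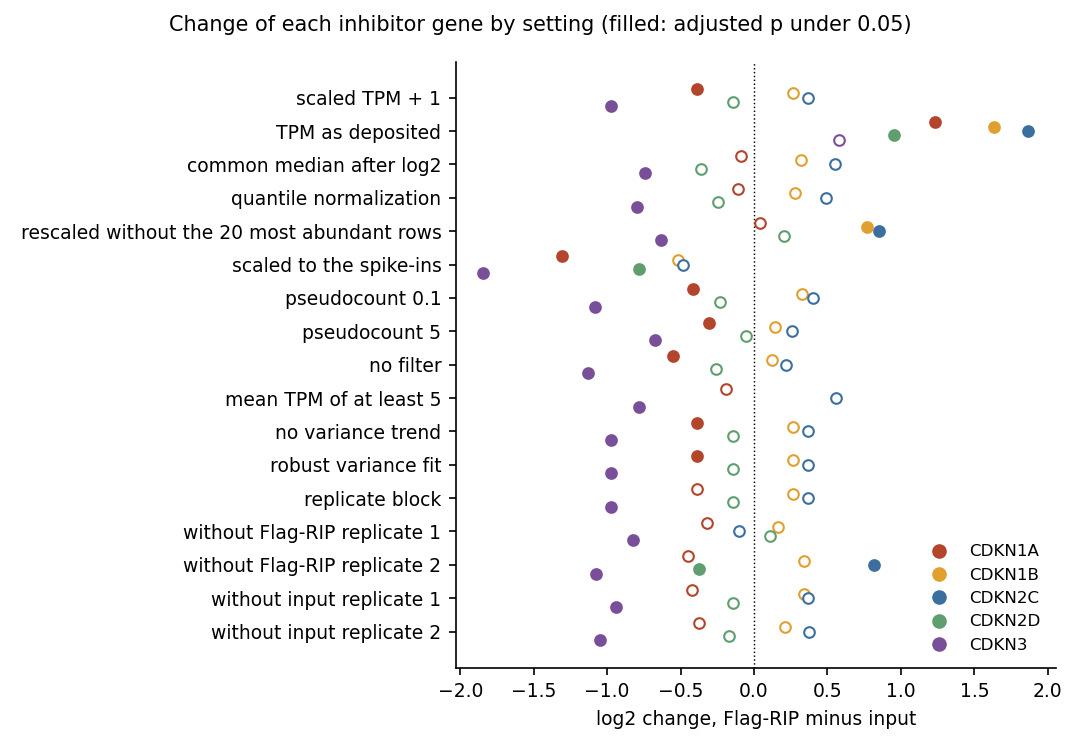
Log2 change (Flag-RIP minus input) of the 5 tested inhibitor genes under 17 settings, 1 row per setting, filled where the limma adjusted p was under 0.05; with a mean TPM of at least 5, CDKN1B and CDKN2D were not tested. The whole family shifts with the scaling, from 0.58 to 1.87 as deposited to -1.84 to -0.48 scaled to the spike-ins, while CDKN3 stays lowest. Dividing a library by a factor moves all members nearly alike, so this order was largely fixed in advance.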

How the data were processed

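The authors deposited 1 table of TPM values per gene with a column for each of the 4 libraries. All columns had the same total within rounding, with 92 ERCC spike-in rows included. The spike-ins took 18.9% and 25.6% of the TPM in Flag-RIP, against 2.78% and 3.89% in input. The submitters' processing notes name STAR, RSEM 1.2.31 and GRCh38; for the annotation, the filters and the strand setting, nothing was given in the sources used here. TPM keeps no depth, so no counting interval is given. Tests left out the spike-ins and genes with a mean under 1 TPM. They were run with limma 3.58.1 under R 4.3.3 (lmFit, then eBayes with a mean-variance trend; 2 residual and 3.23 prior degrees of freedom) on log2(scaled TPM + 1), two-sided, with Benjamini-Hochberg adjustment over all tested genes and a threshold of 0.05. Scaling preceded the pseudocount of 1, which shrinks the fold changes of genes with low values. Leave-one-out fits kept the same genes. The limma step was tested on simulated log2 values with few genes changed, and the scaling step was tested separately. These checks did not cover the filter, or data in which as many genes are called as here. Members, lists, scaling and the rule for named genes (all members, 5 set partners, the largest rise and fall of each list, and the 3 most alike genes) were chosen with earlier results of these data known. Positions are from the RefSeq table of GRCh38.p14. Alternatives are given at the end.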

Additional observations from a re-analysis of the deposited data

How the results depend on the processing

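Depth is unknown, and 2 libraries per group limit every call. The alternatives covered scaling, pseudocount, filter, variance model, replicate block and leaving out each library. As deposited CDKN3 had 0.58 and did not pass (limma adjusted p = 0.075). Under the other alternatives it stayed lower, and it stayed past the threshold in those that kept all 4 libraries. No call of a member changed with a pseudocount of 0.1 or 5, no filter, no variance trend or a robust fit. The causes of the changes listed here were not tested.

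As deposited, 4 members were called higher and 0 lower, 9608 of all tested genes higher and 33 lower, and 39 partner genes higher and 0 lower, with CDKN1A at 1.23, CDKN1B at 1.64, CDKN2C at 1.87 and CDKN2D at 0.96. As deposited CDK4 had 0.83, CCND1 1.34, CCNB1 0.75, E2F4 1.00, SKP2 1.23, PCNA 0.43 and PKMYT1 0.99. Rescaled without the 20 most abundant rows, 2 members were higher and 1 lower, 3748 of all genes higher and 730 lower, and 9 partner genes higher and 1 lower. CDKN1A then had 0.037, CDKN1B 0.77, CDKN2C 0.85, CDKN2D 0.20, CCND1 0.13 and SKP2 0.31. Scaled to the spike-ins, 0 members were higher and 3 lower (CDKN1A, CDKN2D and CDKN3), 325 of all genes were higher and 6339 lower, and 0 partner genes higher and 32 lower. CDKN1B then had -0.52, CDKN2C -0.48, CDKN2D -0.79, CDK2 -0.65, CDK6 -0.033, E2F3 -0.13 and KAT2B -0.11. With a common median after log2, 1 member was lower, CDKN1A had -0.087, CCND1 0.027 and KAT2B -0.046. After quantile normalization, 1 member was lower, CDKN1A had -0.11 and CCND1 0.039. With the filter at a mean TPM of 5, 1157 of all genes were higher and 1098 lower among fewer genes tested (3997), 1 member was lower, and CDKN1A had -0.19. With no filter, 0 partner genes were called higher by limma (4 at an unadjusted p under 0.05), with 23463 genes tested.

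The labels number the libraries 1 and 2 in both groups, and whether same-numbered libraries came from the same lysate is not known. Deviations of same-numbered libraries correlated at -0.098 across tested genes. That value shows no shared deviation but cannot show whether the libraries were paired. With replicate number as a block, 1 member was called lower, and CDKN1A had -0.39 without passing (limma adjusted p = 0.10).

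Leaving out 1 library leaves its group with a lone library, whose spread is taken to be that of the other group. In these fits the members called ranged from 0 to 1 higher and 1 to 2 lower, all genes from 907 to 2143 higher and 222 to 1946 lower, and partner genes from 0 to 5 higher and 0 to 10 lower. CDKN1A ranged from -0.45 to -0.32, CDKN2C from -0.11 to 0.82 and CDKN2D from -0.37 to 0.11.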
